A study of Rattus norvegicus with 4 samples.

Results

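Liver RNA was measured for 9 genes of the blood proteins that the liver secretes in inflammation and of the inhibitors that hold proteases in check, out of 958 named genes on the array. They were chosen by symbol: A2m, C3, Itih3 and Serping1, any gene whose symbol begins with Serpin or Itih, and the fibrinogen chains Fga, Fgb and Fgg. This gave 16 of 1936 probes, for C3, Serping1, A2m, Itih3, Fgg, Serpina1, Serpina3n, Serpina3c and Serpinb6b. Fgg was the fibrinogen chain and Itih3 the inter-alpha-trypsin inhibitor chain that matched, and 0 probes shared between several genes matched. All 9 symbols matched a RefSeq gene of the same number and symbol.

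The ligated group was male Sprague-Dawley rats of 250 to 300 g whose common bile duct was tied under ether, and the sham group was rats of the same kind whose duct was exposed and left untied. Livers were taken 12 h after surgery, and RNA of the right lateral lobe was mixed over the 3 rats of a group, so no value describes a single animal. Each of 4 cDNA arrays carried mixed RNA of both groups. Ligated RNA was in Cy5 on arrays 1 and 3 and in Cy3 on arrays 2 and 4. The deposited value of a probe is a log ratio of the 2 channels, read here as ligation over sham in log2 units; neither direction nor base is stated, and the direction is called likely from the channel order of the labels. A positive value means more RNA in ligated liver than in sham liver. Whether the 4 arrays are repeat hybridisations of 1 pair of mixtures is not stated. The p-values speak only for array-to-array spread and not for spread between animals.

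The acute-phase response is the change in liver secretion that follows tissue injury or infection. Interleukin-6, acting through the factor STAT3, and interleukin-1, acting through NF-kappa-B and C/EBP factors, raise transcription of genes such as fibrinogen and C3 in the hepatocyte, while other secreted proteins fall. Serpins are suicide inhibitors: the protease cuts an exposed loop and is trapped in the act. Alpha-2-macroglobulin traps proteases of many classes in a cage, and in the rat it is a major acute-phase protein.

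Promoters are shown for 3 genes with values above 0 because they hold the letters of elements known from acute-phase genes. Sequences are from RefSeq, build GRCr8, and 6 of the 9 genes matched the promoter table, all but A2m, Serping1 and Serpina3c. Each line gives the 250 bases before the annotated start, 5′ to 3′ on the gene's strand, with motif matches in capitals.
Fgg (chr2:170652833-170653082, plus strand): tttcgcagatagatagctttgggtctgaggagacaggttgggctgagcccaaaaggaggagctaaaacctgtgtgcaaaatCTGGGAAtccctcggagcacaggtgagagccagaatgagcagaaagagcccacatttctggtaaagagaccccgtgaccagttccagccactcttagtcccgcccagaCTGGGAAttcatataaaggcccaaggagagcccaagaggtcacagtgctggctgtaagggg
C3 (chr9:2201340-2201589, minus strand): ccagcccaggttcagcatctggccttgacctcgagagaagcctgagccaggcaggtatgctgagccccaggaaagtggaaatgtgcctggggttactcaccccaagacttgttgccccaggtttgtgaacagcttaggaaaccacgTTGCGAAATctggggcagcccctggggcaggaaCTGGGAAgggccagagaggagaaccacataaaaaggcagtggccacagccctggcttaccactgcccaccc
Serpina3n (chr6:129088142-129088391, plus strand): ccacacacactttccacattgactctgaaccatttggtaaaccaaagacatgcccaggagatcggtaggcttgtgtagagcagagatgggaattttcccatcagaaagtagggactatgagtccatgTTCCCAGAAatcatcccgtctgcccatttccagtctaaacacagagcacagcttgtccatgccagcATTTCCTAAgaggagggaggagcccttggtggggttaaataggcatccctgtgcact
CTGGGAA, the core of an interleukin-6 response element described in fibrinogen genes, was present on either strand in 3 of the 6 promoters (Fgg, C3 and Serpina3n), against 11.3% of all 33469 promoters of the same window (250 bases before to 50 after the start). Fgg held it at positions -169 to -163 and -61 to -55 from the start, and C3 at -71 to -65. TTCNNNGAA, the palindrome of STAT factors, was in 1 of the 6 (Serpina3n, -123 to -115, overlapping a reverse CTGGGAA) and in 8.87% of all promoters. TTNNGNAAT, a form of the C/EBP site, was in 2 of the 6 (C3 at -104 to -96, Serpina3n at -57 to -49) and in 12.3% of all. The HNF1 palindrome, known from liver genes, was in 0 of the 6 and in 1 of all promoters. The promoters of Itih3, Serpina1 and Serpinb6b held none of these letters. These matches are descriptions of sequence, and 4 motifs were searched.

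With each array's median taken as 0, C3, Fgg, Itih3, Serpina3n and Serpina1 were higher in ligated than in sham liver, by 1.15-fold to 1.34-fold. Serping1, Serpina3c and A2m were lower, by 1.46-fold, 1.29-fold and 1.21-fold, and Serpinb6b did not pass the test. With calls made at a limma adjusted p (Benjamini-Hochberg) under 0.05, this made 5 higher and 3 lower of 9 genes, where 28.6% of all 1174 features were called, 12.0% higher and 16.6% lower. The members' median was 0.20, against -0.013 over all features. By single probe, 9 of the 16 were higher and 4 lower, where 27.9% of 1648 probes were called, 11.8% higher and 16.1% lower. The members and this comparison were chosen with earlier results of these data known.

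How far these values stand from 0 depends on where 0 is put. Column medians as deposited were -1.26 and -0.96 on the arrays with ligated RNA in Cy5 and 0.43 and 0.26 on those with ligated RNA in Cy3. Taking each array's median as 0 adds 0.38 to the mean of every gene. As deposited, 0 of the 9 members were called higher by limma (0 also at an unadjusted p under 0.05) and 4 were called lower, namely Serping1, Serpina3c, A2m and Serpinb6b. As deposited 0 members were above 0 on all 4 arrays, against 1.79% of all features. Over all features as deposited, 83.9% were called, 1.70% higher and 82.2% lower. The higher calls of the 5 genes thus rest on the median as zero point, and the differences between members given further on do not.

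**Figure D1:**
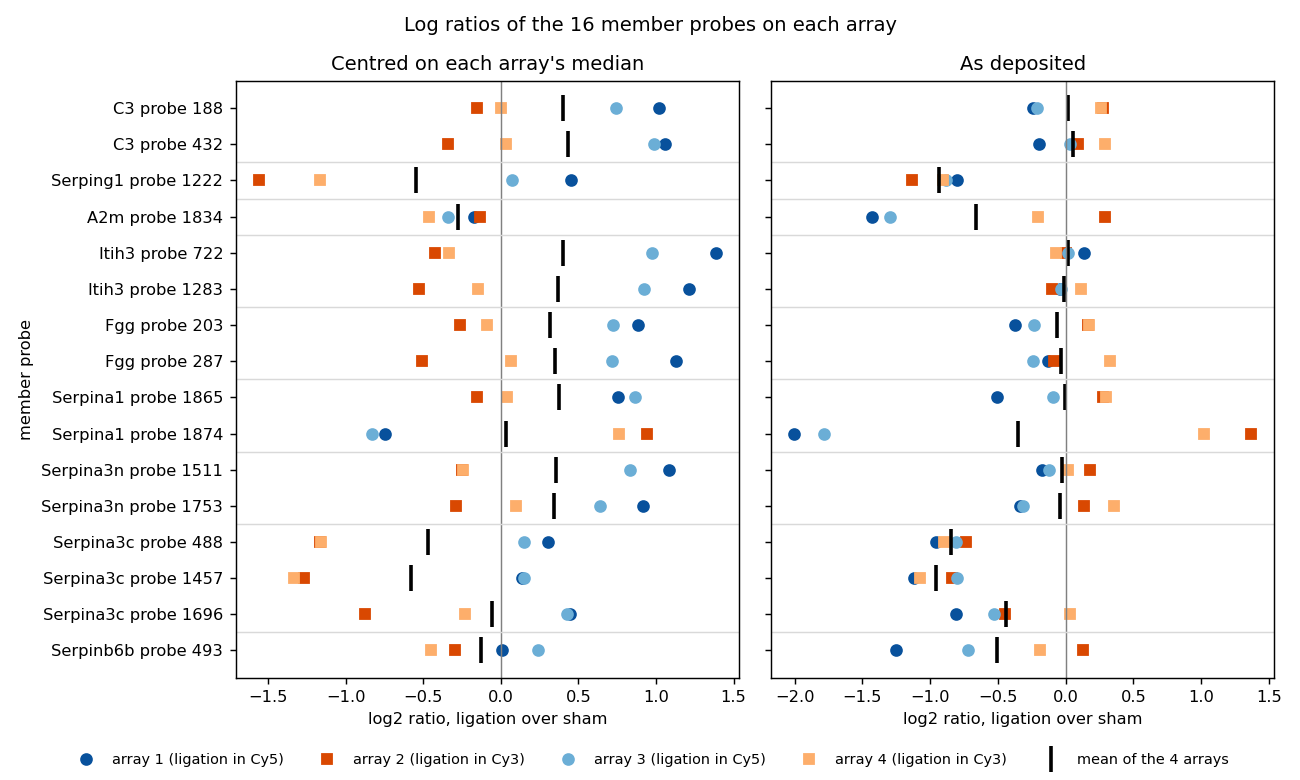
Log2 ratio of ligation over sham for each of the 16 member probes (rows) on each of the 4 arrays, centred on the array median (left) and as deposited (right). Circles are arrays with ligated RNA in Cy5, squares arrays with ligated RNA in Cy3, and the black bar is the mean of the 4. The 8 probes of C3, Fgg, Itih3 and Serpina3n lie between -0.37 and 0.36 on every array as deposited, and Serping1 and all but 1 value of the Serpina3c probes lie below 0.

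C3 is the complement protein on which all activation routes converge, and the liver makes most of it. Its centred log2 ratios were 1.04 and 0.86 on arrays 1 and 3 (ligated RNA in Cy5) and -0.25 and 0.016 on arrays 2 and 4 (ligated RNA in Cy3). After centring the 2 orientations did not overlap, and the Cy5 arrays were the high ones. As deposited the Cy3 arrays were the high ones, so this order rests on the zero point. The share of all features without overlap was not counted. The mean was 0.42 ± 0.08 (SE, 4 arrays, limma adjusted p = 0.00121), or 1.34-fold higher after ligation. The 2 probes, printed in separate blocks of the slide, gave 0.40 and 0.43. As deposited the 4 values were -0.22, 0.18, -0.092 and 0.28, with a mean of 0.037 (limma adjusted p = 0.699).

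Serping1 encodes the C1 inhibitor, the serpin that blocks the first proteases of the classical complement route and also plasma kallikrein and factor XIIa. Its single probe was at 0.45 and 0.072 on arrays 1 and 3 and at -1.56 and -1.17 on arrays 2 and 4 after centring. As deposited it was at -0.80, -1.13, -0.88 and -0.90 on arrays 1 to 4, below 0 on every array with either dye. The same holds for 28.4% of all features as deposited. After centring it was above 0 with ligated RNA in Cy5 and below 0 with it in Cy3. The centred mean was -0.55 ± 0.09 (SE, 4 arrays, limma adjusted p = 0.000457), 1.46-fold lower in ligated than in sham liver and the lowest of the 9 genes. Read as Cy5 over Cy3 it would be at 0.81, the highest of the 9. Under 11 other settings that keep the dye term and the direction and centre or normalize each array it stayed between -0.65 and -0.43 and was called in all 11.

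Within an array the zero point cancels when one gene is set against another. Serping1 minus C3 was -0.58, -1.31, -0.79 and -1.18 on arrays 1 to 4, so the inhibitor's ratio was below that of C3 on every array. The mean difference was -0.97 ± 0.34 (SD, 4 arrays), or 1.96-fold. The exact two-sided sign-flip permutation test gave p = 0.125, the smallest that 4 arrays allow.

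Other complement genes were few: of 34 listed, 3 were measured. Vtn (vitronectin, which keeps the terminal complex from inserting into membranes) was lower at -0.47 ± 0.09 (limma adjusted p = 0.00147). C1qbp and Clu did not pass, and the list's median was 0.11.

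A2m, the broad protease trap, was at -0.18 and -0.34 on arrays 1 and 3 and at -0.13 and -0.47 on arrays 2 and 4. It was below 0 on all 4 arrays after centring, as were 7.50% of all features, and the 2 orientations overlapped. The mean was -0.28 ± 0.08 (SE, 4 arrays, limma adjusted p = 0.0197), 1.21-fold lower after ligation, from 1 probe. The call was lost without array 3 (-0.24, adjusted p = 0.11), without array 4 (-0.20, adjusted p = 0.263) and with print-block centring (-0.21, adjusted p = 0.0638), and on the scale centred by the signed dye-term quartile (-0.32, adjusted p = 0.0553). As deposited its values were -1.43 and -1.30 with ligated RNA in Cy5 and 0.29 and -0.20 with it in Cy3.

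Itih3 is a heavy chain that is linked to the inhibitor bikunin and carried to hyaluronan in the matrix. After centring it was at 1.30 and 0.95 on arrays 1 and 3 and at -0.48 and -0.24 on arrays 2 and 4. Again the dyes did not overlap on this scale, but they did as deposited. The mean was 0.38 ± 0.08 (SE, 4 arrays, limma adjusted p = 0.00341), 1.30-fold higher after ligation, and the 2 probes gave 0.40 and 0.37. As deposited the gene was at 0.045, -0.049, -0.0086 and 0.022, the narrowest range of the 9 genes, with a mean of 0.0021. Serping1 minus Itih3 had the smallest spread of the differences with Serping1, at -0.85, -1.08, -0.87 and -0.93 (mean -0.93 ± 0.11, SD, 4 arrays; exact permutation p = 0.125).

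Fgg encodes the gamma chain of fibrinogen, the clotting protein that thrombin turns into fibrin. It was at 1.01 and 0.72 on arrays 1 and 3 and at -0.39 and -0.011 on arrays 2 and 4. The mean was 0.33 ± 0.09 (SE, 4 arrays, limma adjusted p = 0.0101), 1.26-fold higher after ligation, with probes at 0.31 and 0.35. The call was lost without array 1 (0.26, adjusted p = 0.0916) and without array 4 (0.24, adjusted p = 0.143), and as deposited the mean was -0.049.

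Of 23 listed genes of coagulation and fibrinolysis 4 were measured. The thrombin receptor F2r was lower at -0.75 ± 0.10 (limma adjusted p = 8.31e-05). Plat, the tissue plasminogen activator that starts the breakdown of fibrin, was higher at 0.33 ± 0.07 (adjusted p = 0.00434), but at -0.051 as deposited. Plau and Tfpi did not pass, and the list's median was 0.037.

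Serpina1 encodes alpha-1-antitrypsin, the main plasma inhibitor of neutrophil elastase. Its averaged value was 0.0025 and 0.017 on arrays 1 and 3 and 0.40 and 0.40 on arrays 2 and 4. It was above 0 on all 4 arrays, as were 5.45% of all features, and here the Cy3 arrays were the high ones. The mean was 0.20 ± 0.07 (SE, 4 arrays, limma adjusted p = 0.0484), 1.15-fold higher after ligation.

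This average joined probes that differed. Probe 1865 was at 0.75, -0.15, 0.87 and 0.040 on arrays 1 to 4, the pattern of C3 and Fgg, with a mean of 0.38 (limma adjusted p = 0.00254). Probe 1874 was at -0.75, 0.94, -0.83 and 0.76, high with ligated RNA in Cy3, with a mean of 0.032 (adjusted p = 0.866). Both were printed in block 16 of the slide. The call of the gene was kept in 4 of 11 other settings and was lost on leaving out any 1 array. Values then stayed at 0.20 to 0.21, with limma adjusted p of 0.0745 without array 1 and 0.0875 without array 3. Adjusted p was 0.218 without array 2 and 0.24 without array 4. In these last fits the SE was 0.11, against 0.071 with all arrays, so the loss went with a larger SE while the value hardly moved.

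Serpina3n and Serpina3c are paralogs on chromosome 6, of the clade that holds antichymotrypsin, and RefSeq lists kallikrein-binding protein among the names of Serpina3c. Their transcripts are alike, and cDNA probes can bind related transcripts, so each value may hold some signal of the other. Serpina3n was at 1.00 and 0.74 on arrays 1 and 3 and at -0.27 and -0.072 on arrays 2 and 4. Its mean was 0.35 ± 0.08 (SE, 4 arrays, limma adjusted p = 0.00428), 1.27-fold higher after ligation, and its 2 probes differed by 0.014 in their means (0.36 and 0.34). As deposited the mean was -0.032.

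Serpina3c was at 0.30 and 0.24 on arrays 1 and 3 and at -1.10 and -0.91 on arrays 2 and 4. Its mean was -0.37 ± 0.07 (SE, 4 arrays, limma adjusted p = 0.00209), 1.29-fold lower after ligation. As deposited it was at -0.96, -0.68, -0.71 and -0.65, below 0 on every array.

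The 3 probes of Serpina3c did not give 1 value. Probes 488 and 1457 were at -0.47 and -0.58 (limma adjusted p = 0.000419 and 5.62e-05), and probe 1696 was at -0.058 (adjusted p = 0.778). Probe 1457 minus probe 1696 was -0.31, -0.39, -0.27 and -1.10 on arrays 1 to 4, so probe 1696 was the higher on every array, most of all on array 4. Over the 340 genes with more than 1 probe the median range between probes was 0.13. The range was 0.52 for Serpina3c and 0.34 for Serpina1, and 0.014 to 0.036 for Serpina3n, C3, Fgg and Itih3.

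Serpina3c minus Serpina3n was -0.71, -0.83, -0.50 and -0.84 on arrays 1 to 4. The ratio of Serpina3c was below that of its paralog on each array with either dye. The mean difference was -0.72 ± 0.16 (SD, 4 arrays), or 1.64-fold, with an exact two-sided permutation p = 0.125, the smallest that 4 arrays allow.

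Serpinb6b belongs to the serpins that stay inside the cell. Its single probe was at 0.0075 and 0.24 on arrays 1 and 3 and at -0.30 and -0.45 on arrays 2 and 4. The mean was -0.13 ± 0.08 (SE, 4 arrays, limma adjusted p = 0.275), and it was called in 0 of the 11 other centred or normalized settings. As deposited it was called lower at -0.51 (adjusted p = 0.00174).

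Over all 36 pairs of the 9 genes, 13 (36.1%) kept 1 sign on all 4 arrays, against 19.2% of all pairs of features, and pairs that share a gene are not independent. Of these, 8 set Serping1 or Serpina3c against C3, Fgg, Itih3 or Serpina3n, a grouping made after the values were seen. In all 8 the serpin was below its partner on every array, by means of -0.97 to -0.70 and single-array values of -1.31 to -0.48. Among C3, Fgg, Itih3 and Serpina3n themselves the 6 mean differences were at most 0.086 in size, with single-array values of -0.29 to 0.30 and opposite signs on different arrays in 4 of the 6. C3 minus Fgg was 0.031, 0.14, 0.14 and 0.027 on arrays 1 to 4. Probes of the same gene differed by up to 0.24 (C3) and 0.25 (Fgg) on 1 array, more than this difference. If the table is instead read as Cy5 over Cy3, the 8 mean differences become -0.10 to 0.29, so they rest on the direction read from the channel order.

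**Figure D2:**
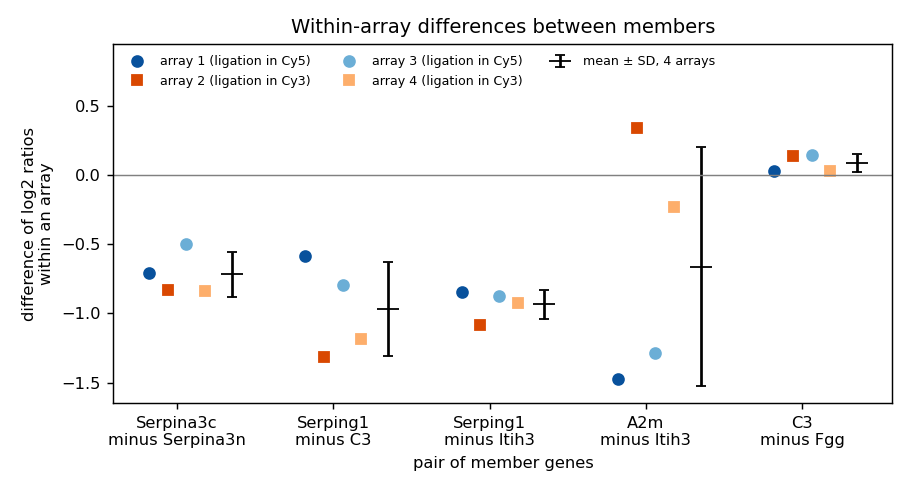
Differences between log2 ratios of member genes within each array (vertical axis) for 5 pairs (horizontal axis). Circles are arrays with ligated RNA in Cy5, squares arrays with ligated RNA in Cy3, and the bar is the mean ± SD of 4 arrays. Serpina3c minus Serpina3n and Serping1 minus C3 or Itih3 are below 0 on all 4 arrays, C3 minus Fgg is close to 0, and A2m minus Itih3 has 1 array above 0.

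The gene-specific dye term, the part of a value that turns with the dye, differed between members. It was 0.81 for Serping1, 0.74 for Itih3, 0.64 for Serpina3c and 0.52 to 0.53 for C3, Fgg and Serpina3n, relative to the array median. That of Serping1 ranked at percentile 95.4 of all features, while A2m (0.021) and Serpina1 (-0.19) ranked at percentiles 44.1 and 32.3. Itih3 ranked at percentile 90.3 and Serpina3c at 81.7. C3, Fgg and Serpina3n ranked at percentiles 73.5 to 74.4, and Serpinb6b (0.25) at 58.3. Pairs of arrays with opposite dyes correlated at Pearson r = -0.45 to -0.28 over all 1936 probes, control spots included, against 0.93 and 0.94 for pairs with the same dye. Under the direction read here, most of the variation between probes on an array thus turned with the dye. Read as Cy5 over Cy3, the dye term and the ligation term change places, and which reading holds was not tested. With each array's median as 0, the dye term was larger in size than the ligation term for 7 of the 9 members, all but A2m and Serpina1. The same share over all features was not counted, so this is not read as a trait of the members. The size of a dye term rests on the zero point too. As deposited Serping1 was at -0.80 and -0.88 with ligated RNA in Cy5 and at -1.13 and -0.90 with it in Cy3. Serpina1 was at -1.25 and -0.94 with ligated RNA in Cy5 and at 0.82 and 0.66 with it in Cy3. On that scale Serpina1 turned more with the dye than Serping1. Over the 1174 features the dye term and the ligation term had Pearson r = -0.11, a description across features that share the same 4 arrays. Without a dye term in the model limma called 0 genes of 958 (52 at an unadjusted p under 0.05) and 0 of the 9 members (0 at an unadjusted p under 0.05).

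**Figure D3:**
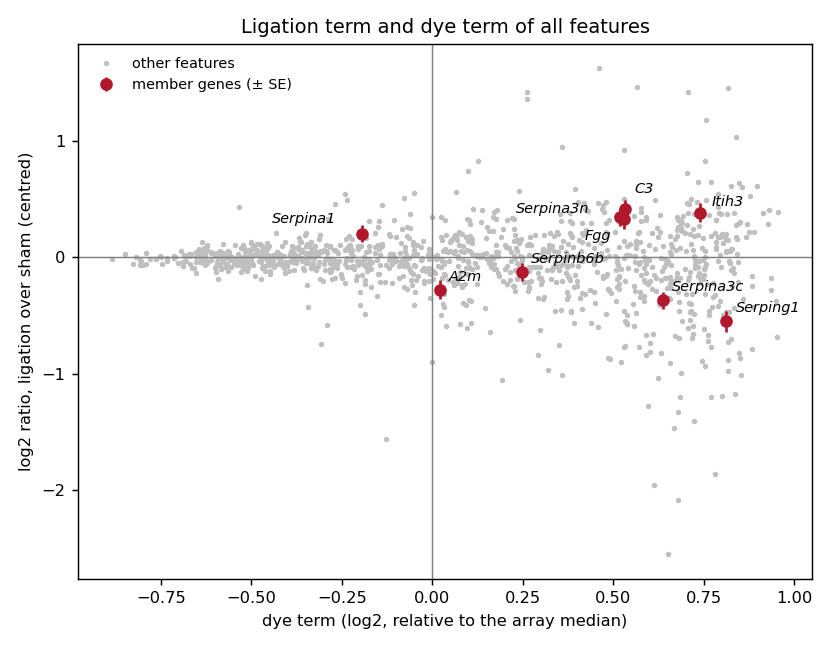
Ligation term (vertical axis, log2 ratio of ligation over sham, centred) against dye term (horizontal axis, log2, relative to the array median) for each of 1174 features. Red points are the 9 member genes with their SE, and grey points are the other features. C3, Fgg and Serpina3n lie together near a dye term of 0.52 to 0.53, and Serping1 lies to the lower right.

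Acute-phase proteins outside the symbols above went both ways. Of 6 measured genes of the positive kind, 2 were higher and 1 lower (median -0.079). Orm1, the alpha-1-acid glycoprotein, was higher at 0.35 ± 0.09 (limma adjusted p = 0.0125), and Timp1, an inhibitor of matrix metalloproteinases, at 0.35 ± 0.08 (adjusted p = 0.00473). Crp, a pentraxin that is no strong acute-phase protein in the rat, was lower at -0.31 ± 0.09 (adjusted p = 0.0199), which missed the threshold on leaving out array 2 (-0.23, adjusted p = 0.153) or 3 (-0.20, adjusted p = 0.169), with quantile normalization (-0.22, adjusted p = 0.105) and with print-block centring (-0.31, adjusted p = 0.0529). Without array 1 the call of Orm1 was lost (0.21, adjusted p = 0.0952). Timp1 missed it with the signed dye-term quartile (0.31, adjusted p = 0.091). As deposited Orm1 was at -0.033 and Timp1 at -0.034.

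All 4 measured genes of the negative kind passed the test, 3 higher and 1 lower (median 0.31). Transferrin (Tf) was at 0.37 ± 0.08, the apolipoprotein Apoa1 at 0.38 ± 0.08 and transthyretin (Ttr) at 0.26 ± 0.07, with limma adjusted p of 0.00304, 0.00375 and 0.0213. Igfals, the carrier subunit of IGF complexes, was lower at -0.56 ± 0.07 (adjusted p = 7.51e-05). Ttr missed the threshold on leaving out array 1 (0.20, adjusted p = 0.0841), 2 (0.26, adjusted p = 0.089) or 4 (0.25, adjusted p = 0.115), with print-block centring (0.15, adjusted p = 0.121) and with the signed dye-term quartile (0.21, adjusted p = 0.109). Tf and Apoa1 had centred ratios within the range of C3, Fgg, Itih3 and Serpina3n (0.33 to 0.42), and Ttr was below it. As deposited the 3 were at -0.014, -0.0039 and -0.13. The widest deposited value of the probes of C3, Fgg, Itih3 and Serpina3n was 0.37 in size, and 81 of 1174 features (6.90%) stayed within that width on all 4 arrays. These 4 genes are among the 81 by the choice of width, and Orm1, Tf, Apoa1 and Ttr are among them too. So are genes of ribosomal proteins and of the proteasome, and the width is thus not particular to secreted proteins.

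Of 3 measured protease inhibitors outside the symbols above, Timp1 passed and Timp2 and Tfpi did not (median 0.091). Of 10 measured proteases, 2 were higher and 8 did not pass (median 0.053). Besides Plat, the higher one was the lysosomal protease Ctsl at 0.37 ± 0.11 (limma adjusted p = 0.0171), but -0.0067 as deposited, and it missed the threshold on leaving out array 1 (0.23, adjusted p = 0.19) or 4 (0.25, adjusted p = 0.126) and with print-block centring (0.33, adjusted p = 0.0613).

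Of 17 measured genes that carry the cytokine signal to acute-phase genes, 4 were higher, 2 lower and 11 did not pass (median 0.056). Over all features 28.6% were called. Of the interleukin-6 route, Stat3 (-0.027), Il6r (0.081) and Il6st (-0.018) did not pass. The C/EBP factor Cebpd was higher at 0.30 ± 0.07 (limma adjusted p = 0.00691), but at -0.087 as deposited, and it was not followed through the other settings. The NF-kappa-B subunit Nfkb2 was higher at 0.83 ± 0.08 (limma adjusted p = 5.09e-06), also as deposited (0.45), and the inhibitor of NF-kappa-B, Nfkbia, was at 0.32 ± 0.07 (-0.064 as deposited). Tnf, which is also on the Kupffer cell list, was lower at -0.57 ± 0.08 and Stat5b, a factor that growth hormone activates, at -0.35 ± 0.08. Stat5b missed the threshold on leaving out array 3 (-0.27, adjusted p = 0.0736) or 4 (-0.27, adjusted p = 0.0743), and Plat on leaving out array 4 (0.29, adjusted p = 0.052) or with the signed dye-term quartile (0.29, adjusted p = 0.0729), where Nfkbia missed it too (0.28, adjusted p = 0.0553).

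**Figure D4:**
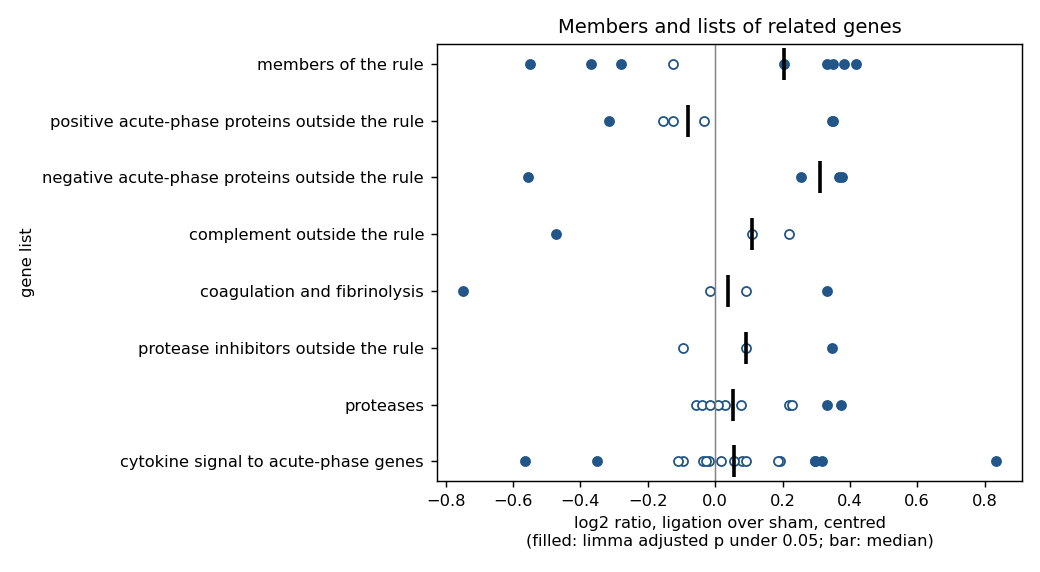
Log2 ratio of ligation over sham, centred on the array median (horizontal axis), for the 9 member genes and for 7 lists of related genes (rows). Each point is a gene, filled where limma's adjusted p was under 0.05, and the bar is the median of the row. The members' median was 0.20, that of the negative acute-phase proteins 0.31 and that of the positive ones -0.079.

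Markers of the cells in liver moved beside these genes, and their part in the results was not tested. Of 6 measured hepatocyte markers 3 were higher and 2 lower (median 0.18). The 3 higher ones were Ttr, Tf and Apoa1, counted above among the negative acute-phase proteins, and the lower ones Cyp2e1 (-0.37) and Cyp3a23-3a1 (-0.70); as deposited 0 were higher and 3 lower. Of 3 Kupffer cell and leukocyte markers all 3 were lower, Tnf, Ccl5 (-0.33) and Cd53 (-0.27), with a median of -0.33. Of 3 markers each, stellate cells had 1 higher (Timp1) and 1 lower (Col1a1, -0.23), and endothelium 1 lower (Kdr, -0.33). On the cholangiocyte list, also of 3, Anxa5 was higher (0.95), and Spp1 (0.14) and Aqp1 (-0.022) did not pass. That list thus rests on 1 gene. The 1 blood cell marker did not pass. The table holds ratios, so whether a marker was at a high or a low level cannot be read from it, and the labelled tissue could not be checked by level. In such mixtures fewer cells of a type and less RNA per cell cannot be told apart.

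Across the processing alternatives the members fell into 3 sets. C3, Itih3, Serpina3n, Serpina3c and Serping1 were called, in 1 direction, in all 11 settings that keep the dye term and the direction and centre or normalize each array. Fgg was called in 9, A2m in 7, Serpina1 in 4 and Serpinb6b in 0 of these 11. Of the 9 genes, Serping1, Serpina3c and A2m were called lower both as deposited and after median centring. The deposited mean lies 0.38 below the centred one for every gene, and 82.2% of all features were called lower as deposited. The deposited calls thus add no separate support. Read as Cy5 over Cy3, Serping1 would be at 0.81 and Serpina3c at 0.64, both higher, while C3, Fgg, Itih3 and Serpina3n would also be higher. That reading gives 7 members higher and 1 lower, against 5 and 3. It also calls 433 of the 958 genes on the array higher and 314 lower, so most of the array is called too.

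**Figure D5:**
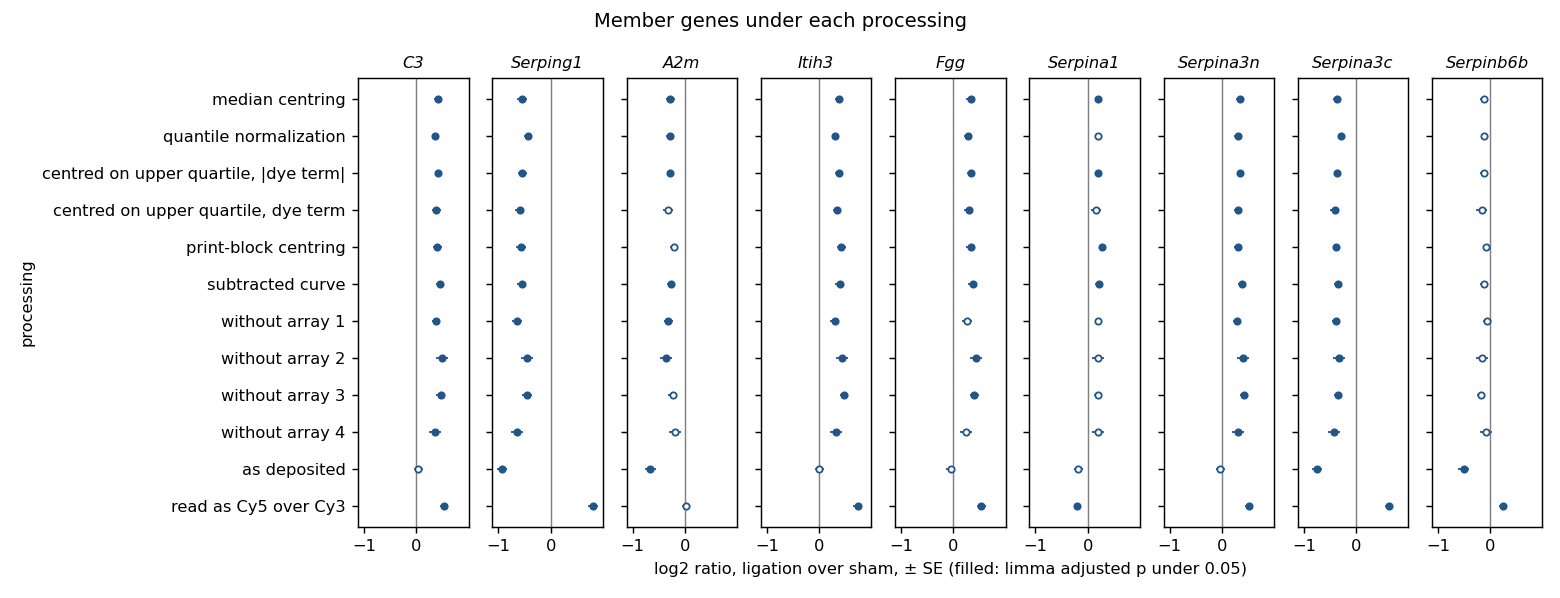
Log2 ratio of ligation over sham ± SE (horizontal axis) for each of the 9 member genes (panels) under median centring and 11 alternatives (rows), filled where limma's adjusted p was under 0.05. Fits without a dye term (0 members called), with control spots kept and with a robust variance prior are not drawn. Values as deposited are lower for every gene, and those of C3, Fgg, Itih3 and Serpina3n then lie between -0.049 and 0.037.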

How the data were processed

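Liver RNA of rats with a ligated or a sham-operated bile duct was compared on 4 two-colour cDNA arrays, all in 1 group because each carried ligated against sham RNA, with sham RNA as the other channel. The authors deposited 1 log ratio, taken as log2, per probe and array for 1936 probes. The sources used here do not give the scanner, background correction, normalization, base or direction. The base was taken as 2 and the direction as channel 2 (ligation) over channel 1 (sham), per the labels' channel order. No intensity was used, so signal over background is unknown and the number of arrays limits precision.

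Probe symbols came from the platform's annotation: 1432 probes had 1 symbol, 19 several and 485 none. Spots at the 18 positions unnamed in each of 16 print blocks (288) were taken as controls, an inference from position, and left out of the fit. Each array was first centred on the median of all 1936 probes, these spots included. Probes of 1 symbol were then averaged, and 958 genes and 216 other probes were fitted with limma 3.58.1 (R 4.3.3, lmFit and eBayes) with a ligation and a dye term. The ratio was tested against 0, which leaves out the sham pool's own spread, with Benjamini-Hochberg adjustment over the 1174 features and calls at 0.05. Single probes were fitted likewise over 1648 probes. Prior degrees of freedom were 10.4 and residual ones 2.

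The members, lists and motifs were chosen with earlier results of these data known. The rule for naming was every member gene, and from each pathway list the called genes, at most the 4 largest. Cebpd, uncalled genes of those lists and the marker genes were named after their values were seen. The fit was also run on simulated data drawn from its own fitted variances and dye terms. Such data cannot address the zero point, the direction or the mixing of animals. Alternatives changed the zero point, dye term, direction, control spots, variance prior and arrays used, and 2 of them (the signed dye-term quartile and the subtracted lowess curve) were added after seeing the data.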

Additional observations from a re-analysis of the deposited data

How the results depend on the processing

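The 11 settings that keep the dye term and the direction and centre or normalize each array left every member gene with its sign. Over the array, 112 genes were called higher and 148 lower, 5 members higher and 3 lower. Leaving out 1 array gave 74 to 117 genes higher and 103 to 151 lower, and 3 to 4 members higher and 2 to 3 lower. Without array 2 or without array 4 limma gave the genes followed here 1 common SE of 0.11. With all arrays their SE ran from 0.071 (Serpina1) to 0.105 (Ctsl). Calls lost in these fits (A2m, Fgg, Serpina1, Crp, Ttr, Plat, Ctsl and Stat5b) thus rest on the changed SE as well as on the array left out. Centring on the upper quartile of the signed dye term, added after seeing the data, gave 60 genes higher. Without a dye term the counts were 0 and 0 for genes and 0 and 0 for members. No further pairing was used, because each array's ratio already sets ligated against sham RNA on the same slide.

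As deposited, 11 genes were called higher and 791 lower, 0 members higher, and 0 member probes higher and 7 lower, against 9 and 4 with centring. Signs then turned for Fgg (-0.049), Serpina1 (-0.18), Serpina3n (-0.032), Orm1 (-0.033), Timp1 (-0.034), Tf (-0.014), Apoa1 (-0.0039), Ttr (-0.13), Plat (-0.051), Ctsl (-0.0067) and Nfkbia (-0.064). They also turned for Fgg probes 203 (-0.068) and 287 (-0.031), Itih3 probe 1283 (-0.016), Serpina3n probes 1511 (-0.025) and 1753 (-0.039), and Serpina1 probes 1865 (-0.0050) and 1874 (-0.35). This shift follows from the zero point by construction.

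Read as Cy5 over Cy3, 433 of 958 genes were called higher and 314 lower, 7 members higher and 1 lower. Signs turned for A2m (0.021), Serpina1 (-0.19), Serpina3c (0.64), Serpinb6b (0.25), Serping1 (0.81), Crp (0.031), Timp1 (-0.00049), Igfals (0.54), Vtn (0.82), Plat (-0.29), Tnf (0.44) and Stat5b (0.29). The ratios carry no signal level, so a change in a dim probe could not be told from background.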
